A study of Mus musculus with 12 samples.

Results

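The mitochondrial genome carries the genes for a small set of respiratory chain proteins, and 10 of them were described here in the striatum of R6/2 and wild-type mice. They were chosen by name: ND1, ND2, ND4, ND5 and ND6 of complex I, CYTB of complex III, COX1, COX2 and COX3 of complex IV and ATP6 of complex V. The rule uses no measured value, although earlier results of these data were known when it was written. These 10 genes stood among 15397 genes in the table, of which 14 are mitochondrially encoded. The other 4 are ND3, ND4L and the ribosomal RNAs mt-Rnr1 and mt-Rnr2, and ATP8 is not analysed here.

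Complex I takes electrons from NADH, complex III passes them to cytochrome c, complex IV hands them to oxygen, and complex V uses the resulting proton gradient to make ATP. Mitochondrial DNA is copied into long RNAs from both strands by its own RNA polymerase, and these are cut into mRNAs, rRNAs and tRNAs, so that genes on a strand share a precursor and differ mainly in processing and stability. Most other subunits of the chain are encoded in the nucleus. Neurons of the striatum draw heavily on this chain, and impaired respiration is a long-studied feature of Huntington's disease.

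RNA was sequenced from striatum of 12 C57BL/6 mice in 4 groups of 3: wild type on vehicle, wild type on PLX3397, R6/2 on vehicle and R6/2 on PLX3397. R6/2 mice carry a transgene with the first exon of human mutant huntingtin under the human huntingtin promoter. PLX3397 inhibits Csf1r, the receptor that microglia need to survive, and was given in chow at 275 ppm from 7 to 11 weeks of age; vehicle mice were kept over the same weeks. The study asked what the removal of microglia does in this model of Huntington's disease. Values are log2 CPM, that is, the log2 of counts per unit of scaled library size with a small prior count added. The scaled size is the number of assigned reads multiplied by a factor. This factor was 0.935 to 1.01 in the wild-type libraries and 1.02 to 1.09 in the R6/2 libraries, and a larger factor gives lower levels. The label "per kb" marks a level also divided by gene length. In whole striatum, fewer cells of a type and less RNA per cell cannot be told apart.

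Each library held 18902120 to 24293208 assigned reads. Csf1r was at 6.62 to 7.16 log2 CPM in the 6 vehicle libraries and at -1.04 to 1.65 in the 6 PLX3397 libraries. Ppp1r1b, a marker of the medium spiny projection neurons that define striatum, was at 9.07 to 11.41 log2 CPM in wild type and 6.14 to 8.42 in R6/2. Markers of neighbouring tissue differed between single libraries, and some also in their group means. The mean level of 14 genes of thalamus, septum and pallidum was 3.96 ± 0.48 log2 CPM in wild type on vehicle (SD, n = 3). In wild type on PLX3397 it was 2.58 ± 0.85. In R6/2 it was 2.43 ± 0.66 on vehicle and 3.39 ± 0.68 on PLX3397. The part of such tissue in the mitochondrial values was not tested. R6/2 PLX3397 libraries 1 and 2 held little Slc17a7, a cortical transporter gene (2.79 and 3.06 log2 CPM, beside 5.67 to 9.86 elsewhere). The mean of 15 cortical genes was 2.42 and 2.48 in them, beside 2.86 to 6.04 elsewhere. Not every cortical gene was low. Rorb was at 4.61 ± 0.39 and Cux2 at 5.24 ± 0.45 in R6/2 on PLX3397 (SD, n = 3). In wild type on PLX3397 they were at 3.21 ± 0.68 and 4.19 ± 0.47. Choroid plexus Ttr reached 12.10 in library 1 of R6/2 on vehicle and 9.89 in library 1 of wild type on PLX3397, and 4.01 to 6.09 elsewhere. Where leaving out such a pair of libraries changed the call or the direction of a member, both values are given, here or with the alternatives.

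The mitochondrial genes have copies in nuclear DNA, left by ancient transfers, and the sequences show how far a read could be told from such a copy. On chromosome 1 of GRCm38 (mm10), pseudogenes on the minus strand repeat a continuous block of mitochondrial sequence. The first 60 bases of COX2 (chrM:7013-7072, plus strand) are the same in its copy Gm28661 (chr1:24615506-24615565, minus strand), and those of COX3 (chrM:8607-8666, plus strand) are the same in Gm28437 (chr1:24613912-24613971, minus strand). The copies of ND6 and ND5 on chromosome 4 have diverged. ND6 (chrM:14011-14070, minus strand) differs from Gm11408 (chr4:80003855-80003914, minus strand) at 2 of 60 bases, and a stretch of ND5 (chrM:12489-12548, plus strand) differs from Gm11407 (chr4:80002331-80002390, plus strand) at 7 of 60. ND4 (chrM:11013-11072, plus strand) shows where its copy on chromosome 1 ends. Capitals mark bases that differ between gene and copy and, in ND4, bases that lie beyond the copy.
COX2: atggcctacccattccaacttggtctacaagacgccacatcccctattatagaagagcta
Gm28661: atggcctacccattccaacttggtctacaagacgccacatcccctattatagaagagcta
COX3: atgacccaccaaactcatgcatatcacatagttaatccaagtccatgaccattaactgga
Gm28437: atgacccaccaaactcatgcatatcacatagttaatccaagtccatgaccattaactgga
ND6: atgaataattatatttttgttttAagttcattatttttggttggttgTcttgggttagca
Gm11408: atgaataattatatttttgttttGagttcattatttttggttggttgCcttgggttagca
ND5: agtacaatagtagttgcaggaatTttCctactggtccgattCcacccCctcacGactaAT
Gm11407: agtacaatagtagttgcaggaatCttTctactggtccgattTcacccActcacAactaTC
ND4: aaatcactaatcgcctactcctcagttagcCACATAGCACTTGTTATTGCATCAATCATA

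The block on chromosome 1 covers whole genes in the middle of the mitochondrial genome and parts of those beside them. COX2 matched Gm28661 over 681 bases, ATP6 matched Gm10925 over 678 bases and COX3 matched Gm28437 over 783 bases, each with an identity of 100%. ND4 matched Gm28439 over its first 876 bases at 100%, which is 63.6% of the gene. COX1 matched Gm29216 over its last 483 bases with 1 mismatch, and over its full 1545 bases it matched Gm13340 on chromosome 2 at 97.6%. Copies outside this block were less alike: 96.7% for ND2 over 510 bases, 93.6% for ND6, 92.9% for CYTB and 92.3% for ND5. The best match of ND1 was at 76.6%. Only annotated nuclear gene models were searched, and these copies are not analysed here.

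A share of each gene that cannot be told from a nuclear model was counted in windows of 50 bases. An exact match was found for 100% of such windows in COX2, 99.9% in COX3 and 99.5% in ATP6. The share was 62.2% in ND4 and 51.1% in COX1, 8.19% in ND2 and 7.61% in ND5, and none of the windows of ND1, ND6 or CYTB matched. With windows of 100 bases the share was 99.5% or more in COX2, COX3 and ATP6, 60.8% in ND4, 30.8% in COX1 and 3.19% in ND2, and ND5 had none. The read length is not given in the sources used here.

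Levels per kb split the 10 genes into an abundant set of 7 and a low set of 3. COX1, the catalytic subunit of complex IV, had the highest mean over the 12 libraries (13.55 log2 CPM per kb), followed by CYTB, the electron-carrying core of complex III (12.53), and ND1 (12.42). Next came ND2 (11.55) and ND4 (10.89), both proton-pumping subunits of complex I, then ND6 (10.37), which is encoded on the opposite strand from the other members, and ND5 (10.09). COX3, COX2 and ATP6 followed at 3.00, 2.48 and 2.16 log2 CPM per kb. COX2 carries the copper site that receives electrons from cytochrome c, COX3 is the third core subunit of complex IV, and ATP6 forms the proton path of complex V, so these 3 are as essential to the chain as the others.

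The step between the sets was far larger than any step within them. ND5 stood above COX3 by 7.09 ± 1.06 log2 units per kb (SD over 12 libraries), or 136-fold. COX1 stood above CYTB by 1.02 ± 0.25 in 12 of 12 libraries. CYTB and ND1 differed by 0.11 ± 0.12, with CYTB higher in 10 of 12, and ND6 and ND5 differed by 0.28 ± 0.51, with ND6 higher in 7 of 12, so neither pair was separated beyond its spread. COX2 and ATP6 were not separated beyond their spread either (0.32 ± 0.35, COX2 higher in 10 of 12). The order of the remaining neighbours was the same in all 12 libraries.

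**Figure D1:**
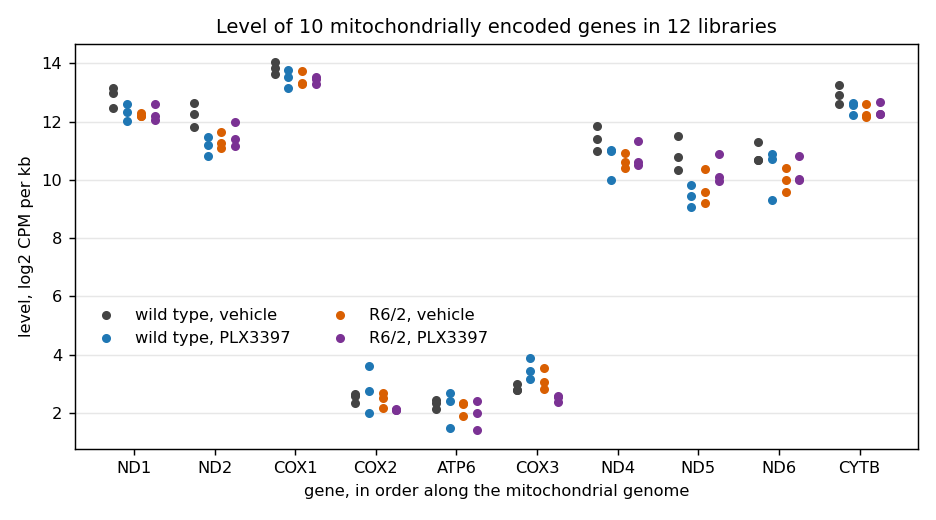
Level of each gene in log2 CPM per kb (vertical axis) in each of 12 libraries, with genes in their order along the mitochondrial genome and points coloured by group. The 7 abundant genes have means from 10.09 to 13.55, and COX2, ATP6 and COX3, which lie side by side on the genome, have means from 2.16 to 3.00.

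Among all 15397 genes ranked by mean CPM, without the log and without division by length, COX1 was the most abundant and CYTB the second. ND1 ranked 4, ND2 ranked 7, ND4 ranked 9, ND5 ranked 14 and ND6 ranked 108. COX3, COX2 and ATP6 ranked 11593, 12589 and 13037. COX1 had 311939 to 501474 reads per library, whereas COX3 had 95 to 266, COX2 had 52 to 189 and ATP6 had 35 to 99. Counting error is therefore negligible for the abundant genes beside the spread between mice, and larger for the low ones.

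The 3 low genes are the 3 members with an exact nuclear match for nearly every window. The same held for the mitochondrial rows outside the 10: ND4L, with a match for 98.8% of windows, was at 1.60 log2 CPM per kb, and ND3, with 98.0% and 1 mismatch to its copy, was at 6.15. COX1 and ND4, matched over 51.1% and 62.2% of windows, were among the abundant genes. The submitters' notes name featureCounts, which can leave out reads that map to several places, but its settings are not given in the sources used here. The part of such reads in these levels was not tested, and the levels of COX2, COX3 and ATP6 are therefore uncertain. The same limit applies in part to ND4, with 502 of 1329 windows unmatched, and to COX1, with 731 of 1496. Their levels and places in the order are less certain too.

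**Figure D2:**
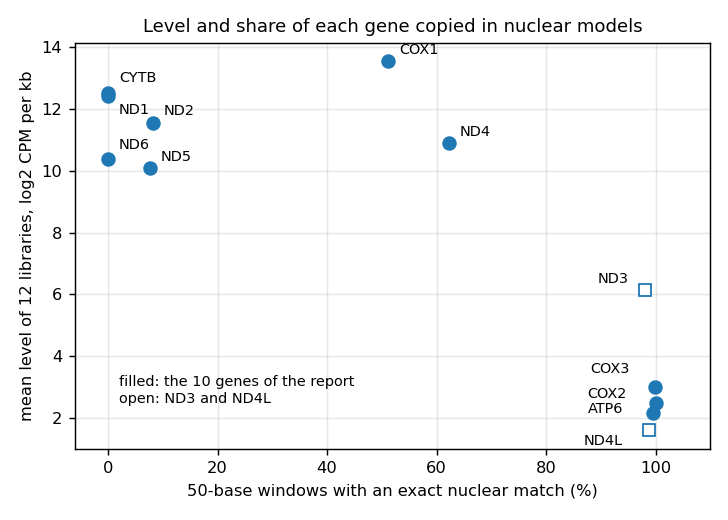
Mean level of 12 libraries in log2 CPM per kb (vertical axis) against the percentage of 50-base windows with an exact match in an annotated nuclear gene model (horizontal axis). Filled circles are the 10 genes and open squares are ND3 and ND4L. The 5 genes at 98.0% or more lie at or below 6.15, and the others, up to 62.2%, lie at or above 10.09.

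Together the 10 genes took 3.22% to 6.01% of the reads of a library. In wild type on vehicle the share was 6.01%, 4.95% and 4.23% in libraries 1, 2 and 3 (mean 5.06 ± 0.90, SD, n = 3). In wild type on PLX3397 it was 3.33%, 3.31% and 3.72% (3.45 ± 0.23), in R6/2 on vehicle 3.44%, 3.22% and 4.31% (3.66 ± 0.57), and in R6/2 on PLX3397 3.50%, 4.40% and 3.55% (3.82 ± 0.51). All 3 libraries of wild type on vehicle were above those of wild type on PLX3397, and overlapped with each R6/2 group in 1 library of that group. COX1 alone made up 40.5% to 60.7% of the reads of the 10 genes, and the low genes together never more than 0.00239% of all reads.

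Complex I is the first of the chain, and its mitochondrial members form the membrane arm that pumps protons. ND1 (gene 17716; chrM:2751-3707, plus strand), next to the site where quinone is reduced, was at 13.08, 12.90 and 12.40 log2 CPM in wild type on vehicle and at 11.94, 12.26 and 12.55 in wild type on PLX3397. In R6/2, ND1 was at 12.12, 12.13 and 12.23 on vehicle and at 12.12, 12.55 and 11.99 on PLX3397. All 3 R6/2 vehicle libraries were below all 3 wild-type vehicle libraries, and the other groups overlapped.

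ND2 (gene 17717; chrM:3914-4951, plus strand), a pump subunit of the arm, was at 12.68, 12.30 and 11.87 log2 CPM in wild type on vehicle and at 10.86, 11.25 and 11.52 in wild type on PLX3397. In R6/2, ND2 was at 11.14, 11.31 and 11.70 on vehicle and at 11.44, 12.03 and 11.20 on PLX3397. The wild-type vehicle group lay above both the wild-type PLX3397 and the R6/2 vehicle group with no overlap.

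ND4 (gene 17719; chrM:10167-11544, plus strand), another pump subunit, was at 12.30, 11.87 and 11.47 log2 CPM in wild type on vehicle and at 10.44, 11.45 and 11.50 in wild type on PLX3397. In R6/2, ND4 was at 11.09, 10.89 and 11.40 on vehicle and at 11.06, 11.78 and 10.99 on PLX3397. Only R6/2 vehicle was apart from wild-type vehicle, and wild-type PLX3397 library 1 had the lowest ND4 of the 12.

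ND5 (gene 17721; chrM:11742-13565, plus strand) is the pump subunit at the far end of the arm, and it varied most of the 10 genes, over 2.42 log2 units. ND5 was at 12.36, 11.66 and 11.22 log2 CPM in wild type on vehicle and at 9.94, 10.30 and 10.69 in wild type on PLX3397. In R6/2, ND5 was at 10.06, 10.46 and 11.24 on vehicle and at 10.95, 11.77 and 10.83 on PLX3397. The wild-type PLX3397 group lay below wild-type vehicle and below R6/2 PLX3397 with no overlap, whereas R6/2 vehicle library 3 reached into the wild-type vehicle range.

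ND6 (gene 17722; chrM:13552-14070, minus strand), the only member read from the other strand, overlaps the end of ND5, and the strand setting of the read counting is not given in the sources used here. Reads from the overlap cannot be assigned to a gene without strand. ND6 was at 10.36, 9.72 and 9.75 log2 CPM in wild type on vehicle and at 8.36, 9.94 and 9.77 in wild type on PLX3397. In R6/2, ND6 was at 9.06, 8.64 and 9.45 on vehicle and at 9.07, 9.88 and 9.05 on PLX3397. On vehicle, ND6 was lower in every R6/2 library than in any of wild type, and library 1 of wild type on PLX3397 was the lowest of all.

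CYTB (gene 17711; chrM:14145-15288, plus strand) was at 13.43, 13.11 and 12.80 log2 CPM in wild type on vehicle and at 12.42, 12.75 and 12.82 in wild type on PLX3397. In R6/2, CYTB was at 12.41, 12.34 and 12.79 on vehicle and at 12.46, 12.85 and 12.46 on PLX3397. Its groups came close to each other, and R6/2 vehicle stayed below wild-type vehicle by the small gap between 12.79 and 12.80. That gap, between library 3 of each group, rested on the library scaling. Without scaling, CYTB took 136934 of 18902120 reads in R6/2 and 167432 of 23144040 in wild type, a slightly higher share in R6/2.

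In complex IV, COX1 (gene 17708; chrM:5328-6872, plus strand) was the steadiest member, with a range of 0.88 log2 units over the 12 libraries. COX1 was at 14.66, 14.46 and 14.24 log2 CPM in wild type on vehicle and at 14.40, 13.78 and 14.14 in wild type on PLX3397. In R6/2, COX1 was at 13.93, 13.95 and 14.36 on vehicle and at 13.91, 14.09 and 14.14 on PLX3397. The R6/2 PLX3397 libraries were all below wild-type vehicle, and every other pair of groups overlapped.

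COX3 (gene 17710; chrM:8607-9390, plus strand) followed another pattern from the abundant genes. COX3 was at 2.45, 2.45 and 2.65 log2 CPM in wild type on vehicle and at 2.83, 3.54 and 3.08 in wild type on PLX3397, which corresponds to 97, 119 and 145 reads against 136, 266 and 169. In R6/2, COX3 was at 3.21, 2.46 and 2.71 on vehicle and at 2.24, 2.03 and 2.20 on PLX3397, from 242, 107 and 125 reads against 114, 95 and 105. The PLX3397 libraries were above the vehicle libraries in wild type and below them in R6/2, with no overlap in either genotype.

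COX2 (gene 17709; chrM:7013-7696, plus strand) was at 2.12, 1.81 and 2.02 log2 CPM in wild type on vehicle and at 1.47, 3.05 and 2.21 in wild type on PLX3397. In R6/2, COX2 was at 2.15, 1.96 and 1.63 on vehicle and at 1.55, 1.56 and 1.59 on PLX3397. The wild-type PLX3397 libraries spread over more than the other 9, and R6/2 PLX3397 was below both vehicle groups.

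For complex V, ATP6 (gene 17705; chrM:7927-8607, plus strand) was at 1.90, 1.57 and 1.78 log2 CPM in wild type on vehicle and at 0.92, 2.14 and 1.87 in wild type on PLX3397. In R6/2, ATP6 was at 1.74, 1.36 and 1.78 on vehicle and at 1.45, 1.86 and 0.85 on PLX3397. All 4 groups of ATP6 overlapped.

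**Figure D3:**
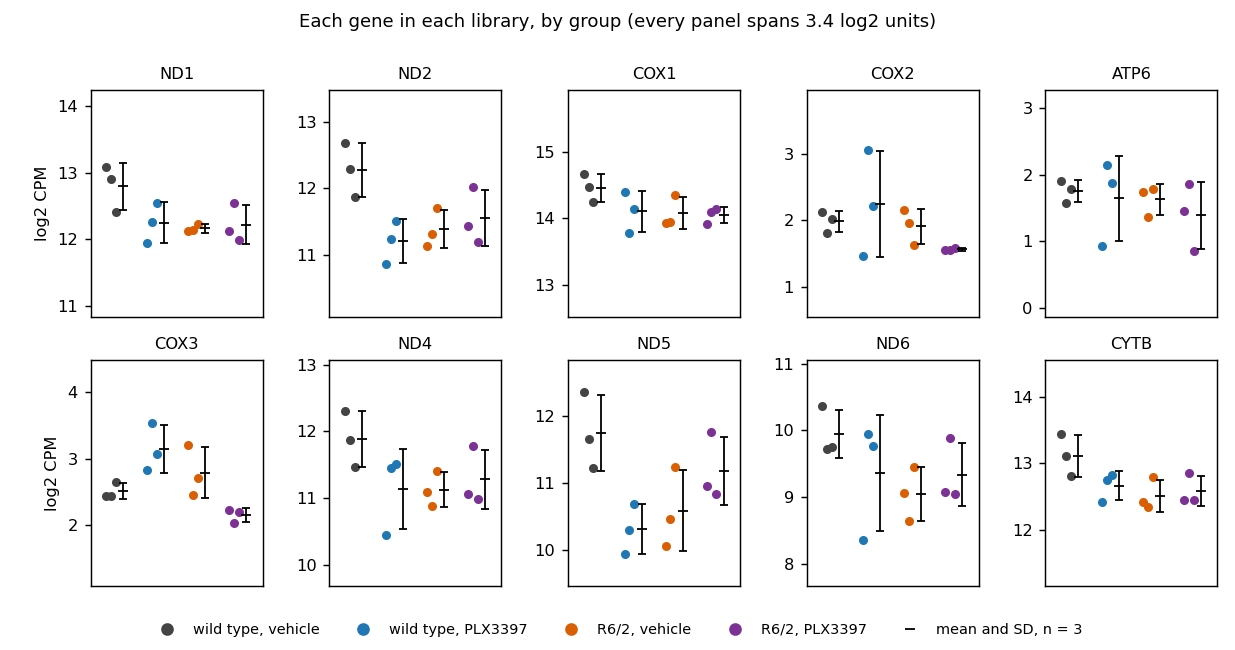
Level of each of the 10 genes in log2 CPM (vertical axes, each spanning the same number of units) in each library, coloured by group, with the mean and SD of 3 libraries beside them. ND2 and ND5 are lower in all 3 wild-type PLX3397 libraries than in wild-type vehicle, and COX3 is higher in wild-type PLX3397 and lower in R6/2 PLX3397 than in the vehicle group of the same genotype.

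Between the vehicle groups, R6/2 was set against wild type to see the effect of the transgene on its own. Of the 10 genes, 9 had a lower mean in R6/2 and none was called by limma (adjusted p under 0.05, Benjamini-Hochberg, all 15397 genes), beside 2.11% of all genes called. The median change of the 10 was -0.62 on the log2 scale, beside 0.01 for all genes. CYTB, ND1, ND2, ND4, ND5 and ND6, 6 of the 10, were lower at an unadjusted p under 0.05, which 22.6% of all genes reached in either direction. The groups did not overlap for 5 of them (CYTB, ND1, ND2, ND4 and ND6), beside 17.1% of all genes that were lower without overlap. For CYTB the lack of overlap rested on the library scaling. Among the abundant genes COX1 changed least, by -0.38 ± 0.29 (SE; limma adjusted p = 0.473).

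The largest difference in that comparison was that of ND5, at -1.16 ± 0.38 (limma adjusted p = 0.117; 95% interval -2.01 to -0.32). That of ND2 was -0.90 ± 0.29, a level 1.86-fold lower (adjusted p = 0.112). The low genes had intervals on both sides of 0: COX3 was at 0.28 ± 0.24 (-0.24 to 0.80), COX2 at -0.07 ± 0.34 (-0.81 to 0.67) and ATP6 at -0.12 ± 0.34 (-0.88 to 0.64). Markers of medium spiny neurons moved in the same comparison: 7 of 20 were called lower with a median of -2.31, beside 230 of 15397 genes called lower. Over the alternatives the number of these markers called ranged from 0 to 16. Their summed level was 5377 to 14408 CPM in wild type and 1399.7 to 3107 in R6/2. Their part in the lower mitochondrial values was not tested.

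Transcript GC content was also related to change. Across the 14305 genes with a known GC content, which are not independent replicates, the vehicle genotype change rose with GC (Spearman's rho 0.285). The 10 genes lie at the low edge, with a GC content of 34.1% to 39.9% beside a median of 49.9%, so that 0.11% to 5.24% of genes lie lower. When each library's trend on GC and length was taken out, the median change of the 10 was -0.06 in place of -0.62.

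The comparison of PLX3397 with vehicle in wild type asked what the drug does in healthy striatum. ND5 and ND2 fell, and these were 2 of 10 members called lower, beside 8.3% of all genes called lower and 14.2% called in either direction. ND5 fell by 1.44 ± 0.38 on the log2 scale, to a level 2.71-fold lower (limma adjusted p = 0.0342; 95% interval -2.28 to -0.59), and ND2 fell by 1.07 ± 0.29, 2.1-fold (adjusted p = 0.0356; -1.71 to -0.43). No group overlap was seen for 3 of the 10 (ND2, ND5 and COX3), beside 36.1% of all genes. The median of the 10 was -0.50, beside 0.00 for all genes, and 8 had a lower mean. With the trend on GC and length taken out that median was -0.12. COX3 was at 0.63 ± 0.24 (adjusted p = 0.0871), in the opposite direction.

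The other members of this comparison were not called. ND4 was at -0.75 ± 0.34 (limma adjusted p = 0.143), ND6 at -0.59 ± 0.40 (0.322), ND1 at -0.55 ± 0.25 (0.153), CYTB at -0.45 ± 0.25 (0.225) and COX1 at -0.35 ± 0.29 (0.429). COX2 was at 0.26 ± 0.34 and ATP6 at -0.11 ± 0.34. A difference as large as that of ND2 lies within the 95% interval of ND1 (-1.10 to 0.01), so these values do not show that ND1 and ND2 responded differently.

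Both calls rested on single libraries and on the processing. Without wild-type vehicle library 1 the adjusted p was 0.134 for ND5 and 0.138 for ND2, and without library 2 of that group it was 0.10 and 0.113. Without wild-type PLX3397 library 1 it was 0.0666 and 0.0744, without library 2 of that group 0.0745 and 0.0725, and without R6/2 vehicle library 2, which enters only through the spread, 0.0501 for ND2. Leaving out the choroid plexus pair of libraries gave 0.0528 and 0.0708, while that of COX3 was 0.0258. With the GC trend taken out ND5 was at -0.98 (adjusted p = 0.115) and ND2 at -0.59 (0.278), and the drug's change in wild type rose with GC over all genes at a Spearman's rho of 0.517.

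The share of ND5 relative to another gene of the same strand does not depend on library scaling. The difference of ND5 and ND1 within a library was -0.72, -1.24 and -1.18 log2 units in wild type on vehicle and -2.0, -1.96 and -1.86 in wild type on PLX3397. In R6/2 it was -2.06, -1.68 and -0.99 on vehicle and -1.17, -0.78 and -1.15 on PLX3397. The wild-type PLX3397 values lay below all wild-type vehicle and all R6/2 PLX3397 values. ND5 and ND1 have a like GC content, 37.1% and 37.6%, but differ in length, 1824 and 957 bases. The part of GC and length in these ratios was not tested. These ratios were looked at after the values were seen and are given without a test.

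**Figure D4:**
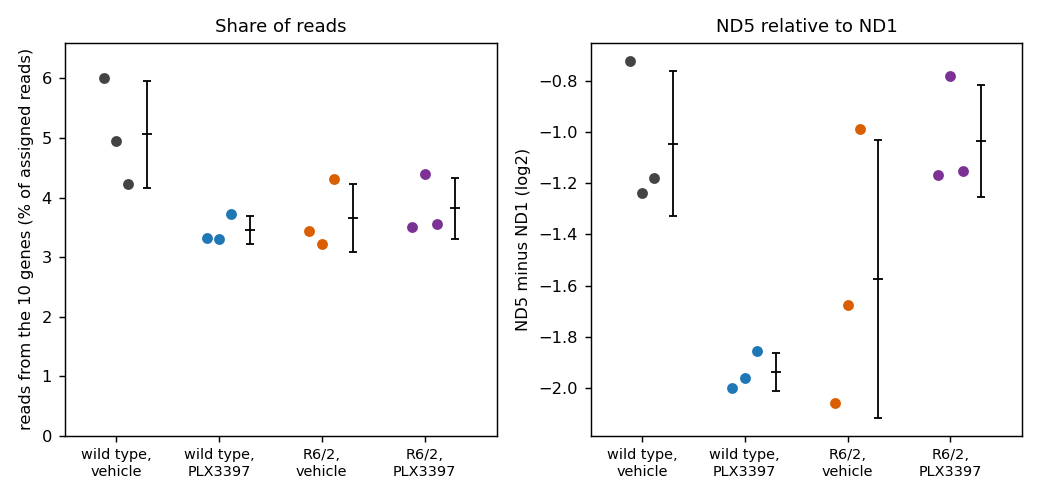
Left, reads from the 10 genes as a percentage of assigned reads in each library; right, the log2 difference of ND5 and ND1 in each library; both with the mean and SD of 3 libraries per group. The share is 4.23% to 6.01% in wild type on vehicle and 3.31% to 3.72% in wild type on PLX3397, and the difference is -2.0 to -1.86 in wild type on PLX3397.

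The comparison of PLX3397 with vehicle in R6/2 asked the same of the diseased striatum. No member was called, beside 1.1% of all genes, and the median of the 10 was 0.07, beside -0.01 for all genes. With the trend on GC and length taken out the median was -0.34, and 9 of the 10 were lower on PLX3397, none of them called. COX3 was at -0.64 ± 0.24 (limma adjusted p = 0.306) and was the only member at an unadjusted p under 0.05, which 13.1% of all genes reached. ND5 was at 0.60 ± 0.38 (adjusted p = 0.504; 95% interval -0.25 to 1.44) and ND2 at 0.17 ± 0.29 (0.803; -0.47 to 0.81). Vehicle and PLX3397 libraries did not overlap for COX2 and COX3, 2 of 10 beside 24.1% of all genes. COX1 was at -0.03 ± 0.29, with an interval of -0.68 to 0.62 that still allows a change of such size in either direction. R6/2 PLX3397 libraries 1 and 2 were low in Slc17a7 and in the mean of the cortical genes, and without these libraries ND2 was at -0.18 and COX1 at 0.07.

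Both genotypes lost microglia on the drug. Of 20 homeostatic microglial genes 19 were called lower in wild type and 19 in R6/2. Over all genes 8.3% were called lower in wild type, and 160 of 15397 in R6/2. The summed level of the 20 genes was 588 to 836 CPM in the vehicle libraries of R6/2 and 633 to 718 in those of wild type. It was 29.7 to 63.4 in the PLX3397 libraries. Of these 20 genes, 4 had 0 reads in at least 1 library. The part of the missing cells in the mitochondrial values was not tested.

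The comparison of R6/2 with wild type on PLX3397 asked what the mutation changes when microglia are gone. COX3 was lower in R6/2 and was the member called, 1 of 10, beside 17.9% of all genes called lower and 35% called in either direction. Its difference was -0.99 ± 0.24, a level 1.99-fold lower (limma adjusted p = 0.00957; 95% interval -1.51 to -0.48). It was called in every other alternative, leaving out each of the 12 libraries included, but not without R6/2 PLX3397 libraries 1 and 2 together (adjusted p = 0.17), where 1 library of that group remained. ND5 was at 0.87 ± 0.38 (adjusted p = 0.0971) and higher in all 3 R6/2 libraries, and COX2 was at -0.68 ± 0.34 (0.135). COX2 was called without wild-type PLX3397 library 1 (adjusted p = 0.0155), without the choroid plexus pair (0.0144) and with the GC trend taken out (0.0298). ND5 and COX3 were the 2 members without overlap, beside 46.8% of all genes. The median of the 10 was -0.04, beside 0.00 for all genes, and -0.27 with the GC trend taken out.

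**Figure D5:**
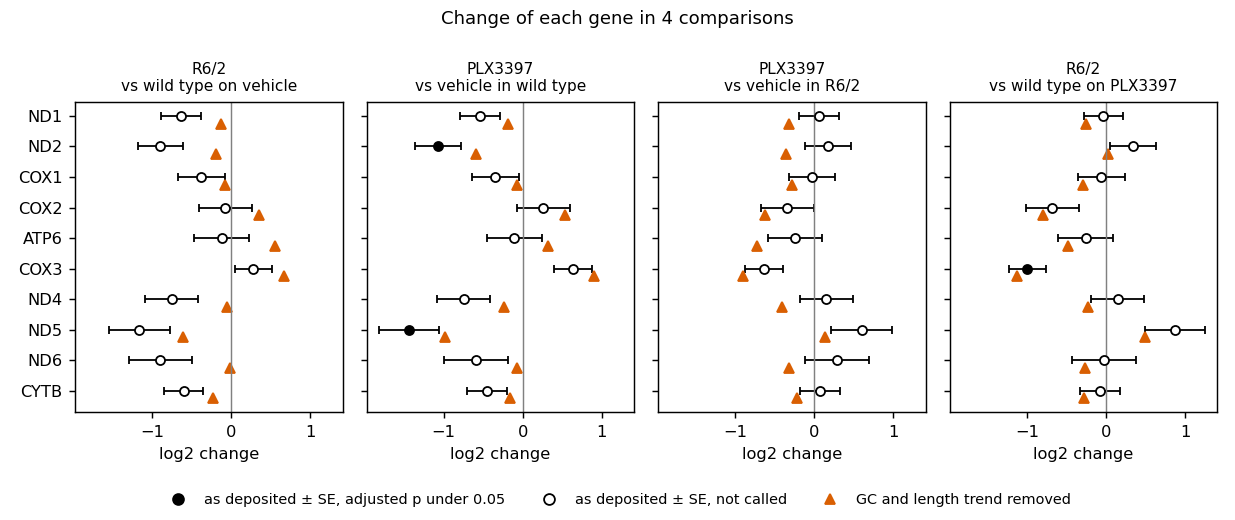
Log2 change of each gene (horizontal axes) in 4 comparisons, as circles with their SE from limma, filled where the adjusted p is under 0.05, and as triangles with the trend on GC and length taken out. Filled circles are ND2 and ND5 for PLX3397 in wild type and COX3 for R6/2 against wild type on PLX3397. With the trend removed the values of the abundant genes for R6/2 on vehicle lie closer to 0.

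The test of whether the drug's change differed between genotypes, the interaction, called ND5 and COX3 in opposite directions. The change of ND5 was 2.03 ± 0.54 log2 units higher in R6/2 than in wild type (limma adjusted p = 0.0314; 95% interval 0.84 to 3.23), and that of COX3 was -1.27 ± 0.33 in the same direction of subtraction (adjusted p = 0.0300; -2.01 to -0.54). These are 2 of 10 members beside 17% of all genes. ND2 was at 1.24 ± 0.41 (adjusted p = 0.0588), and it was called by limma-voom on the recovered reads (0.0486), without wild-type vehicle library 3 (0.0413) and without R6/2 PLX3397 library 3 (0.0440). The median of the 10 was 0.56, beside -0.05 for all genes, and that of the 7 abundant genes was 0.87. With the trend on GC and length taken out the median of the 10 turned to -0.19, and 5 of the 7 abundant genes (ND1, ND4, ND6, CYTB and COX1) were below 0.

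The interaction of ND5 was lost in many alternatives. With the GC trend taken out it was 1.11 (limma adjusted p = 0.195), and without the choroid plexus pair its adjusted p was 0.0826. Without single libraries its adjusted p was 0.0785 and 0.069 (wild-type vehicle 1 and 2), 0.0526 (library 2 of wild type on PLX3397), 0.0685 and 0.0599 (R6/2 vehicle 1 and 2), and 0.0589 and 0.076 (R6/2 PLX3397 libraries 1 and 2). That of COX3 was -1.80 with the trend removed (adjusted p = 0.0440). Without single libraries the adjusted p of COX3 was 0.076 and 0.0729 (wild-type vehicle 1 and 2), 0.0511 (library 2 of wild type on PLX3397), 0.0595 (R6/2 vehicle library 1), and 0.0614 and 0.0741 (R6/2 PLX3397 libraries 1 and 2). Without R6/2 PLX3397 libraries 1 and 2 together neither was called (0.269 for ND5 and 0.263 for COX3).

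Over the 12 libraries most pairs of abundant genes were correlated, given as a description, since the points share library and depth. Pearson's r between pairs of the 7 abundant genes had a median of 0.831 (21 pairs, 0.266 to 0.956), and for deviations from group means a median of 0.834 (-0.141 to 0.965). COX1 was the exception within groups: its r was -0.141 with ND6, 0.025 with ND4, 0.188 with ND1 and 0.298 with ND2. It was 0.409 to 0.765 between the 3 low genes, and it had a median of 0.05 between abundant and low genes (21 pairs, -0.595 to 0.790). Wild-type vehicle library 1 had the highest value of all 12 in each of the 7 abundant genes.

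The gene whose level followed the mean of the 10 most closely, among 14848 nuclear genes averaging 1 CPM or more, was Malat1, a long noncoding RNA kept in the nucleus (r = 0.954 over 12 libraries, and 0.945 for deviations from group means). Malat1 was at 9.87, 9.44 and 8.77 log2 CPM in wild type on vehicle and at 7.25, 8.82 and 8.99 in wild type on PLX3397. In R6/2, Malat1 was at 7.45, 7.84 and 8.23 on vehicle and at 8.07, 8.95 and 7.71 on PLX3397. It was highest in wild-type vehicle library 1 and lowest in wild-type PLX3397 library 1. Next came Zfp119b (0.925), 2900052N01Rik (0.921), Dbpht2 (0.915) and Sorbs2os (0.911). The most opposite were Tmem127 (-0.950), Mgrn1 (-0.942), Amer3 (-0.936), Ddb1 (-0.908) and Golga2 (-0.896).

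The subunits that the nucleus contributes to the same complexes were counted beside the mitochondrial genes, from lists that fixed no direction. Of 76 measured nuclear subunits (37 of complex I, 4 of II, 8 of III, 11 of IV and 16 of V), none was called for R6/2 against wild type on vehicle, with a median of 0.08. For PLX3397 in wild type 14 were called higher and 0 lower, beside 5.93% of all genes called higher, with a median of 0.50, while ND2 and ND5 fell. Ndufs3, a core subunit of complex I, was at 5.84, 5.96 and 5.87 log2 CPM on vehicle and at 6.54, 6.86 and 6.49 on PLX3397, a rise of 0.74 ± 0.13 (limma adjusted p = 0.0111). All its PLX3397 libraries were above its vehicle libraries. Cox5b of complex IV rose by 0.62 ± 0.16 (adjusted p = 0.0309), Uqcrc1 of complex III by 0.67 ± 0.18 (0.0345) and Atp5d of complex V by 0.57 ± 0.15 (0.0329). None of these 4 was called without wild-type vehicle library 1 or with the GC trend taken out, where they were at 0.28, 0.31, 0.33 and 0.060 in the same order. Cox5b, Uqcrc1 and Atp5d were also lost without wild-type vehicle library 2 and without wild-type PLX3397 library 2 or 3 (adjusted p from 0.0586 to 0.121). In R6/2 the drug moved the list by a median of -0.15, with 0 called.

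On PLX3397, 44 of the 76 nuclear subunits were called lower in R6/2 than in wild type and none higher, with a median of -0.56, beside 17.9% of all genes called lower. They were spread over the complexes, with 23 of complex I, 1 of II, 3 of III, 10 of IV and 7 of V. Cox6a1, of complex IV, was at -0.96 ± 0.17 (limma adjusted p = 0.00277), and at -0.083 with the GC trend taken out (0.645) and -0.78 without R6/2 PLX3397 libraries 1 and 2 (0.132). For the interaction 14 were called lower and 0 higher, beside 7.71% of all genes called lower. The count for the drug in wild type was 0 without wild-type vehicle library 1, 1 without library 2 of that group, 52 without wild-type PLX3397 library 1, 1 without library 2 of that group and 3 without library 3. It was 0 in a separate fit of both groups, 3 without R6/2 PLX3397 libraries 1 and 2, 22 without R6/2 vehicle library 1, 58 without the choroid plexus pair and 7 with the GC trend taken out. The count of 44 was 18 (and 2 higher) with the trend taken out, 13 in a separate fit, 0 without R6/2 PLX3397 libraries 1 and 2, 14 to 29 without any 1 of R6/2 PLX3397 libraries 1, 2 and 3 or of wild-type PLX3397 libraries 2 and 3, and 59 without wild-type PLX3397 library 1. For the interaction the count ranged from 0 to 47.

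Genes that make and keep mitochondrial RNA and DNA were counted in the same way. For R6/2 on vehicle none was called among 11 genes of mitochondrial transcription, 12 of mitochondrial DNA replication and 23 of RNA processing. None of 25 genes of assembly and translation and 14 regulators of biogenesis was called either, beside 2.11% of all genes. For PLX3397 in wild type the counts were 2 higher and 0 lower in transcription, 1 and 1 in replication and 3 and 0 in RNA processing. They were 4 and 0 in assembly and 0 and 4 among the regulators. Of all genes 5.93% were called higher, 8.3% lower and 14.2% in either direction. Over the alternatives the number called was 0 to 2 in transcription and in replication, 0 to 7 in RNA processing, 1 to 9 in assembly and 0 to 6 among the regulators. Polrmt, the mitochondrial RNA polymerase, rose by 0.47 ± 0.11 (limma adjusted p = 0.0259), and Ecsit, an assembly factor of complex I, rose by 0.75 ± 0.10 (0.00249). Dguok, which supplies purine nucleotides for mitochondrial DNA, rose by 0.68 ± 0.13 (0.0132), whereas Rrm2b, a subunit of ribonucleotide reductase, fell by 1.22 ± 0.23 (0.0118).

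Among the regulators, Ppargc1a, which encodes the coactivator PGC-1alpha, fell by 1.13 ± 0.26 with PLX3397 in wild type (limma adjusted p = 0.0214) and Esrrg, an orphan nuclear receptor, fell by 1.77 ± 0.34 (0.0134). Ppargc1a was at 5.93, 6.00 and 5.19 log2 CPM on vehicle and at 4.14, 4.65 and 4.92 on PLX3397, with no overlap. Without wild-type vehicle library 1 or 2 the values of Polrmt (0.45 and 0.43), Dguok (0.68 and 0.69), Rrm2b (-1.17 and -1.19), Ppargc1a (-1.02 and -0.99) and Esrrg (-1.77 and -1.48) were no longer called, and that of Ppargc1a was not called without wild-type PLX3397 library 2 either (-1.17). With the GC trend taken out Polrmt was at 0.22, Ecsit at 0.31 and Ppargc1a at -0.46, none of them called.

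For R6/2 against wild type on PLX3397, transcription genes had 0 called higher and 2 lower, replication genes 1 and 2, RNA processing genes 2 and 5, assembly genes 1 and 7, and regulators 4 and 2. Over all genes 35% were called in either direction and 17.9% lower. With both directions pooled, the first 4 of these lists held a smaller share of called genes than the whole table. For lower calls alone, the counts were 2 of 11 in transcription, 2 of 12 in replication and 5 of 23 in RNA processing. They were 7 of 25 in assembly and 2 of 14 among the regulators, beside 17.9% of all genes called lower. With so few genes per list, none of these shares is read as different from that of all genes. Without R6/2 PLX3397 libraries 1 and 2, where 237 of all genes were called, 1 replication gene and 1 assembly gene were called lower and none in the other 3 lists. Dguok was at -0.92 ± 0.13 (limma adjusted p = 0.000981) and Rrm2b at 1.59 ± 0.23 (0.000945). Dguok was called in each of the 24 alternatives (-1.03 to -0.83), and Rrm2b in 23 of 24 (0.95 to 1.83), the exception being the fit without R6/2 PLX3397 libraries 1 and 2 (adjusted p = 0.0588).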

How the data were processed

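The members and all gene lists were chosen with earlier results of these data known. The submitters' processing notes name STAR, featureCounts, edgeR, limma and the mm10 build, without versions; strand setting, read length and the selection of RNA before library preparation are not given in the sources used here. The authors deposited log2 values labelled RPKM, which were log2 CPM with a prior of 2 reads on average: 100% of the values gave whole reads within 0.1 read. The groups share replicate numbers, but same-numbered libraries did not deviate together (r = -0.32 to 0.40). P-values rest on the spread between mice of the same group, pooled over the 4 groups and shrunk toward that of genes of similar level.

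Groups were compared with limma 3.58.1 (R 4.3.3) on the log2 values as deposited, in 1 fit of 4 groups with an intensity trend, two-sided, with Benjamini-Hochberg adjustment over 15397 genes, and calls at 0.05. The scripts were tested on simulated data. The 5 comparisons share libraries. Gene positions, length and GC content come from GENCODE M21 on GRCm38, known for 14305 genes (92.9%), and nuclear copies were sought with BLAST 2.17.0 and by exact windows of 50 and 100 bases. All 10 members matched that annotation.

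Named are all mitochondrial rows, up to 3 members of each list with the smallest p among those called (up to 2 where none is), and the 5 nuclear genes most and least correlated with the members' mean; the text names a part of these. Alternatives were a replicate block, other pseudocounts (0.1 and 1), a filter at 1 CPM, rescaling, a total of nuclear reads only, voom on recovered reads, no intensity trend, separate fits, removal of a GC and length trend, and leaving out each library or the 2 pairs that stood apart. Applying them to the nuclear lists and genes was decided after seeing the data. Figures were drawn with matplotlib 3.10.9 under Python 3.11.15 (pandas 2.3.3).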

Additional observations from a re-analysis of the deposited data

Results flagged for a closer look

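The drug's change differed between genotypes, by the interaction test, for 2 of the 10 genes, beside 17% of all genes. For ND5 the change in R6/2 minus that in wild type was 2.035 log2 units, and for COX3 it was -1.272. Both were lost without wild-type vehicle library 1 or 2 and without both R6/2 PLX3397 libraries low in cortical genes, as given in the report. For COX3, 95 to 266 reads per library and a nuclear copy with an identity of 100% limit the value, and their part in the difference was not tested.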

How the results depend on the processing

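No mitochondrial gene was called for R6/2 on vehicle or for PLX3397 in R6/2 under any of the 24 alternatives. For PLX3397 in wild type the count of 2 became 0 in a separate fit of both groups, 0 with the GC and length trend removed, 1 without the choroid plexus pair (R6/2 vehicle 1 and wild-type PLX3397 1), and 0 to 2 when single libraries were left out. For R6/2 against wild type on PLX3397 the count of 1 became 2 with the trend removed, 2 without the choroid plexus pair, 0 without R6/2 PLX3397 libraries 1 and 2, and 1 to 2 without single libraries. For the interaction the count of 2 became 1, 1 and 0 in these settings and 0 to 3 without single libraries. With the trend removed the medians were -0.063 (R6/2 on vehicle) and -0.19 (interaction). With the replicate block, although same-numbered libraries share only a number, the counts were 0 (PLX3397 in wild type), 1 (R6/2 on PLX3397) and 0 (interaction). Over all genes the counts ranged from 1 to 581, 228 to 3560, 58 to 381, 237 to 6046 and 0 to 3532 in the order of the comparisons.

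Members whose sign changed were not called in either setting, and the cause was not tested. In the interaction ND4 had been at 0.90, ND6 at 0.87, ND1 at 0.60, CYTB at 0.52 and COX1 at 0.32, and the others had been between -0.12 and 0.35 outside the fits without single libraries. With the trend removed they were COX2 0.35 and ATP6 0.56 (R6/2 on vehicle), ATP6 0.32 (PLX3397 in wild type), ND1 -0.32, ND2 -0.36, ND4 -0.41, ND6 -0.33 and CYTB -0.21 (PLX3397 in R6/2), ND4 -0.23 (R6/2 on PLX3397), and ND1 -0.13, ND4 -0.18, ND6 -0.25, CYTB -0.051 and COX1 -0.21 (interaction). Without R6/2 PLX3397 libraries 1 and 2 they were ND1 -0.18, ND2 -0.18, ND4 -0.14, CYTB -0.057 and COX1 0.066 (PLX3397 in R6/2), and ND2 -0.0073, ND4 -0.14 and COX1 0.037 (R6/2 on PLX3397). Without the choroid plexus pair they were ATP6 0.25 (PLX3397 in wild type), and ND4 -0.20 and COX1 0.087 (R6/2 on PLX3397). Leaving out single libraries gave COX2 -0.19 to 0.070 and ATP6 -0.21 to 0.013 (R6/2 on vehicle), COX2 -0.14 to 0.65 and ATP6 -0.36 to 0.25 (PLX3397 in wild type), and ND1 -0.11 to 0.17, ND2 -0.064 to 0.35, ND4 -0.10 to 0.30, CYTB -0.058 to 0.21, COX1 -0.10 to 0.11 and ATP6 -0.48 to 0.022 (PLX3397 in R6/2). It gave ND1 -0.20 to 0.12, ND4 -0.20 to 0.33, ND6 -0.52 to 0.27, COX1 -0.22 to 0.087 and ATP6 -0.61 to 0.011 (R6/2 on PLX3397), and ATP6 -0.49 to 0.13 (interaction). Where a group kept 1 library its spread was taken from the other groups. By deviations from group means, the nuclear gene closest to the members' mean was Elmod2 (r = 0.979) in place of Malat1. Without division by length ND5 ranked above ND6, and the low set was the same 3 genes.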

Other observations

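The mitochondrial rows outside the 10 genes give a further view of the same genome. Of the ribosomal RNAs, transcribed from the same strand as most members, mt-Rnr1 ranged over 0.92 log2 units and mt-Rnr2 over 1.25, beside 0.88 for COX1. The level of mt-Rnr1 was at 11.51 ± 0.24 log2 CPM in wild type on vehicle, 11.36 ± 0.44 in wild type on PLX3397, 11.31 ± 0.15 in R6/2 on vehicle and 11.40 ± 0.11 in R6/2 on PLX3397 (SD, n = 3). No comparison called either of them, with changes from -0.20 to 0.24 for mt-Rnr1 and from -0.51 (R6/2 on vehicle) to 0.53 (interaction) for mt-Rnr2. ND3, a small subunit of complex I, was at 5.12 ± 0.17 log2 CPM in wild type on vehicle and 4.16 ± 0.33 in R6/2 on vehicle, without overlap and not called (limma adjusted p = 0.109). ND4L had 5 to 41 reads per library and was not called in any comparison. In the interaction it was at 1.80 ± 0.69 (limma adjusted p = 0.0884).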
